A study of Mus musculus with 2 samples.

Results

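Immediate-early genes are switched on within minutes of a growth factor, cytokine or mechanical stimulus, without new protein synthesis, and many of them encode transcription factors that set the slower response. cJUN is a subunit of AP-1, a dimeric transcription factor that is itself a product of this response and binds the DNA motif TGANTCA or the related cAMP response element. In the gut, Myc acts in the proliferating progenitor compartment and Klf4 marks differentiating epithelium. Enhancers of Myc are known to lie far from the gene, across a long stretch of DNA with few other coding genes. The immediate-early genes described here are Myc, Klf2, Klf4, Klf6, Nr4a2, Ier5 and Ankrd1. They were chosen because at least 1 cJUN peak names them among its nearest genes, so the presence of peaks at them is not a result. In all, 11 of 2741 peaks listed 1 of these 7 genes, and no peak listed more than 1 of them.

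The peaks come from a comparison of a cJUN immunoprecipitate with an input of sheared DNA, by chromatin immunoprecipitation and sequencing (ChIP-seq), with 1 library each. Both came from whole intestine of wild type C57BL/6 mouse embryos at E14.5, taken from 1 litter of 8 embryos and cultured on transwells for 24 h. Chromatin was sheared to about 500 bp and cJUN was recovered with a rabbit polyclonal antibody. The labels do not separate the embryos, no mutant or stimulated tissue was compared, and no value below has a replicate error. As an organ, the intestine holds epithelium, mesenchyme, nerve and blood cells. A site bound in few cells and a site bound weakly in many cannot be told apart. RNA was not analysed here, so nothing below says whether a gene was expressed. The peak list gives no read totals, and the depth of the libraries is unknown.

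Fold is the ratio of the immunoprecipitate over background at a peak, and the score restates the caller's p-value for that peak as 10 times its −log10. Both are the authors' values. Distances run from the middle of a peak to the start site of the listed gene. Their sign is not explained in the file. Of 675 genes with a known strand and 2 or more peaks, 663 were placed at 1 start site to within 1 bp when a positive distance was read as downstream, and 5 when it was read as upstream. Positive distances are therefore called downstream in the direction of transcription. A peak is called close at up to 50 kb and far beyond 500 kb. Only 1 of all 4694 listings was over 1 Mb from its peak, so genes farther off are in effect not listed.

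The 6 of the 7 genes with an entry in RefSeq's promoter table (GRCm38.p6) are Klf2, Klf4, Klf6, Nr4a2, Ier5 and Ankrd1. The nearest of the 11 peaks lay 8.08 kb from the start site of the gene it lists. The list is on the mm9 genome, and its start sites were not matched to those of the promoter table. Where they are the same, the promoters show sequence at which the list has no peak. In the 250 bases before the start site, read on both strands, the AP-1 motif TGANTCA was found in 0 of 6 and in 6.75% of all 32851 promoters of the table, and the full cAMP response element TGACGTCA in 0 of 6 and 1.55%. The shorter core TGACG, which is part of the full element, was found in Nr4a2, Klf4 and Klf2, which is 3 of 6, and in 17.8% of all promoters. A match is only a description of these letters, and an absent match says only that they are not in this window. The 3 promoters with the core, and that of Ier5, the gene with the nearest peak, are printed in the direction of the gene, with each TGACG or its reverse complement CGTCA in capitals.

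Nr4a2, chr2:57124004-57124253 of GRCm38.p6, minus strand: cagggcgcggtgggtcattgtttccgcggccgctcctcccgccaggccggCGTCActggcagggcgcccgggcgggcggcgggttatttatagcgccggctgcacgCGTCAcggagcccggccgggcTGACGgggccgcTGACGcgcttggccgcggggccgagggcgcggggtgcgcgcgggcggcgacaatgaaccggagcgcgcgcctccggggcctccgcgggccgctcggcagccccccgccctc
Klf4, chr4:55532476-55532725 of GRCm38.p6, minus strand: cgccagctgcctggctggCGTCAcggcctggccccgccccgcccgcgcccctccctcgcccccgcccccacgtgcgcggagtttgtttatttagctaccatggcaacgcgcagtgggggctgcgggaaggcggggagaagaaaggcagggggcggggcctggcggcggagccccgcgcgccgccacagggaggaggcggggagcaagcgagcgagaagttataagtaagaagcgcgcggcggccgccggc
Klf2, chr8:72318812-72319061 of GRCm38.p6, plus strand: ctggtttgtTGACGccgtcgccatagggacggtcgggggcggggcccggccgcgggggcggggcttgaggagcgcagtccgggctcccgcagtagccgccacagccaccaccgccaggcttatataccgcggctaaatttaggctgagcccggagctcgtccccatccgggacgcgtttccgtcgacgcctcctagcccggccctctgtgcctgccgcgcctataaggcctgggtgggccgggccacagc
Ier5, chr1:155099637-155099886 of GRCm38.p6, minus strand: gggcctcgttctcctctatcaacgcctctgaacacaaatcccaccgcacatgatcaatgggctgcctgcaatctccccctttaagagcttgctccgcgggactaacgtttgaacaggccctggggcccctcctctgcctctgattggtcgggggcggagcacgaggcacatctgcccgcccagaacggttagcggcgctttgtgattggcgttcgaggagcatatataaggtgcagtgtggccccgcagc

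The Nr4a2 promoter held the core at 4 places, at 200, 144, 123 and 111 bases before the start site, counted to the first base of each match as printed. Klf4 had it at 232 bases and Klf2 at 241 bases, 1 match each, and the Ier5 window had none. The share of G and C was 80% in Nr4a2, 74.0% in Klf4 and 71.2% in Klf2. It was lower in the promoters without the core, with 64.8% in Klf6, 60% in Ier5 and 55.6% in Ankrd1. This share was not computed for all promoters, so the shares of promoters with the core are not matched for it.

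Most of the 11 peaks lay far from the immediate-early gene they list. Of the 11, 6 were over 500 kb away (54.5%), where 16.4% of all 4694 listings in the table were. Another 4 lay between 50 and 500 kb and 1 was close (9.09%), beside 25.6% of all listings within 50 kb. The median distance was 509.5 kb for the 11 and 144 kb for all listings. It was 241 kb when each of the 7 genes was counted by its nearest peak only. With peaks at or above the median score of the list, 3 of the 5 remaining peaks were over 500 kb away. Counted by gene, Myc, Klf4 and Klf6 had their nearest peak over 500 kb away (3 of 7, beside 7.69% of 2745 protein-coding genes with a listing). Klf2, Nr4a2 and Ankrd1 had it at an intermediate distance, and Ier5 alone had a peak within 50 kb (1 of 7, beside 35.6%). These genes were picked from a list already known to have distant peaks, so the distances describe them and were not tested.

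**Figure D1:**
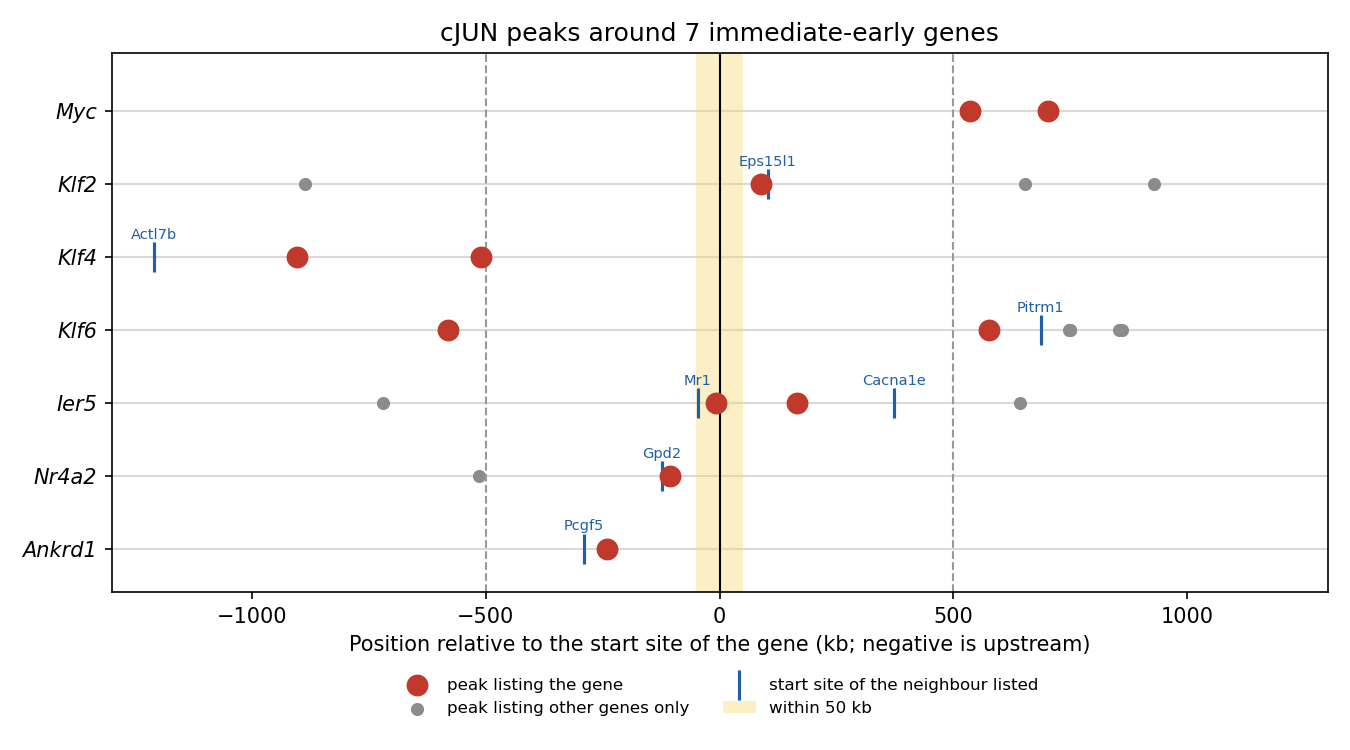
Position of cJUN peaks within 1 Mb of the start site of each of the 7 genes, in kb along the direction of transcription. Red points are peaks that list the gene, grey points are peaks that list other genes only, blue bars are start sites of the co-listed neighbours that could be placed (Actl7b, at 1209 kb, is drawn beyond the 1 Mb window, and Gm5444 at Klf6 is not drawn because its strand is unknown), and dashed lines mark 500 kb on either side. Only Ier5 has a red point within the shaded 50 kb.

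**Figure D2:**
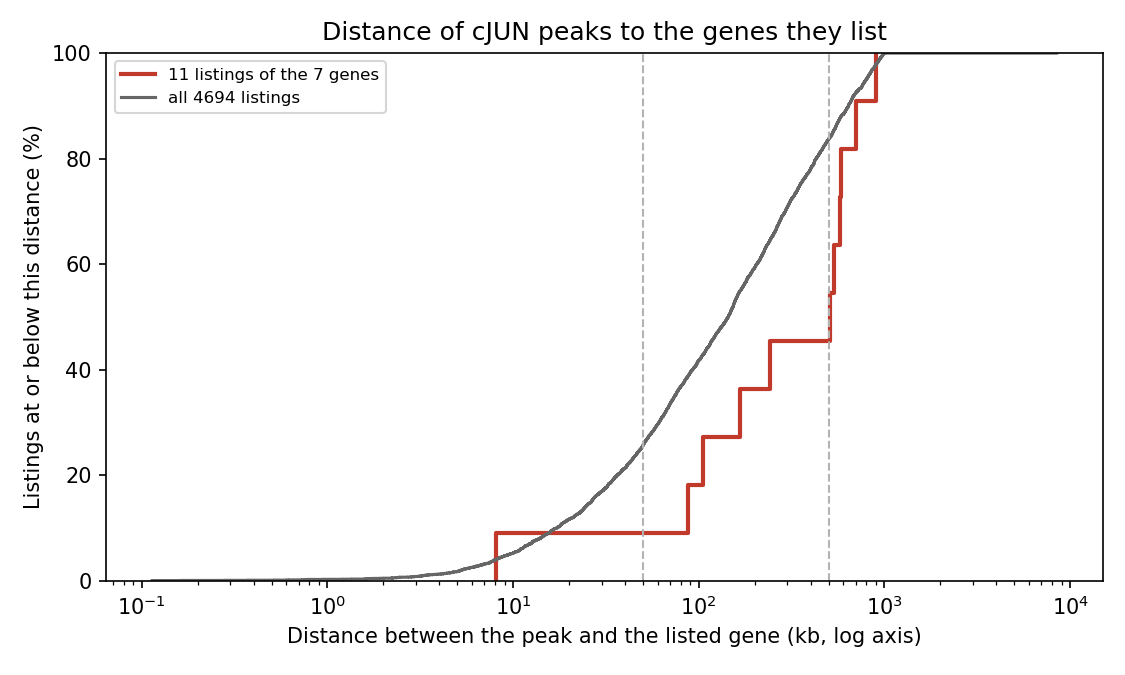
Cumulative share of listings (y axis, %) by distance between the peak and the listed gene (x axis, kb, log scale), for the 11 listings of the 7 genes in red and all 4694 listings in grey, with dashed lines at 50 and 500 kb. The red line crosses the middle of the y axis at 509.5 kb and the grey line at 144 kb.

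Myc encodes a basic helix-loop-helix leucine zipper transcription factor that drives growth and division. It had 2 peaks, both downstream and both listing no other gene, in a list that in effect leaves out genes over 1 Mb from a peak. The first, at chromosome 15 from 62352026 to 62352194 (mm9, as are all peak positions here), was 535 kb from the start site (fold 16.75, score 71.72). The second, at 62519607 to 62519751, was 703 kb away (fold 17.59, score 68.7). These were the highest and the third-highest scores of the 11 peaks, at percentiles 81.3 and 76.3 of the whole list. The peaks were 168 kb apart, and no other peak was called within 1 Mb of the Myc start site on either side. In the GRCm38.p6 gene order, the gene after Myc is the noncoding Pvt1, and 16 noncoding genes and pseudogenes, but no coding gene, separate Myc from Gsdmc, which encodes a gasdermin. Both peaks therefore lay on the side of the gene that holds Pvt1. Within 1 Mb, the 7 genes had from 1 peak (Ankrd1) to 7 (Klf6), and Myc, Klf4 and Nr4a2 had 2 each. This number was not computed for genes outside the 7, so a lack of other peaks does not set Myc, Klf4 or Ankrd1 apart.

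Of the Krüppel-like factors, which are zinc finger transcription factors, Klf4 had the most distant peak. Klf4 is known in the gut for its part in goblet cell differentiation and growth arrest, and as a reprogramming factor. Both of its peaks lay upstream, in the interval towards Actl7b, a gene of an actin-like protein known from testis, and both list that gene as well. The interval measured 1209 kb from start site to start site, with 11 noncoding genes or pseudogenes and no coding gene between the 2 genes in the GRCm38.p6 order. Since a peak lists its nearest genes, a lack of coding genes between 2 co-listed genes largely follows from the listing. The co-listed pairs at Klf2, Ier5, Ankrd1 and the downstream Klf6 peak also had no coding gene between them, and the pair at Nr4a2 had 2. The peak at chromosome 4 from 56448273 to 56448458 lay 903 kb from Klf4 and 306 kb from Actl7b, and its fold was 24.62 at a score of 69.84. That fold was the highest of the 11, at percentile 97.2 of the list, and 74.7% of the way from Klf4 to Actl7b. The other peak, at 56054766 to 56054912, lay 509.5 kb from Klf4 and 699 kb from Actl7b, and its fold was 15.99 at a score of 54.55. That score was the lowest of the 11, at percentile 7.79. The 2 peaks thus held both the highest fold and the lowest score of the set, 394 kb apart, and no other peak was called within 1 Mb of Klf4.

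Klf6, a widely expressed factor also studied as a tumour suppressor, had a peak on either side at almost the same distance. The upstream peak, at chromosome 13 from 5280301 to 5280459, was 580 kb off (fold 11.12, score 57.03) and also listed the predicted gene Gm5444 at 509 kb. The downstream peak, at 6437240 to 6437395, was 577 kb off (fold 14.74, score 57.13) and was nearer to Pitrm1, the gene of a mitochondrial peptidase, at 110 kb. The upstream peak had the lowest fold of the 11, at percentile 13.9. Klf6 was the farther of the 2 listed genes at both peaks. Another 5 peaks lay within 1 Mb of the Klf6 start site, on the downstream side beyond Pitrm1, and listed the glycolytic enzyme gene Pfkp or Pfkp and Pitrm1.

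Klf2, which is known for the response of endothelium to blood flow and for lymphocyte quiescence, had 1 peak at chromosome 8 from 74930802 to 74930931. Lying 87.9 kb downstream of Klf2, it had a fold of 18.42 at a score of 63.0, in the middle of the list by score (percentile 57.2). The peak was 14.506 kb from the start site of Eps15l1, an endocytic adaptor gene next to Klf2, which is transcribed towards Klf2. It was 85.8% of the way along the 102 kb between both start sites. Of 4 peaks within 1 Mb of Klf2, the other 3 did not list it.

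Nr4a2 encodes an orphan nuclear receptor that is induced by cAMP and is needed for midbrain dopamine neurons. Its single peak, at chromosome 2 from 57072385 to 57072565, was 105 kb upstream (fold 15.83) and scored 57.03, at percentile 22.0. The peak was nearer to Gpd2, the mitochondrial glycerol-3-phosphate dehydrogenase gene, at 18.2 kb. It was 85.2% of the way from Nr4a2 to Gpd2, which are transcribed away from each other and whose start sites are 123 kb apart. In the GRCm38.p6 order, 8 genes lie between these 2, and 2 of the 8 are coding (LOC105244150 and Gm52512). A stronger call in the same window, with a score of 189.63 but a fold of 6.79, lay 515 kb upstream of Nr4a2 and listed Galnt5 and Gpd2 instead.

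Ier5 encodes a nuclear protein known to modulate the heat shock factor response. It had the closest peak of the set, at chromosome 1 from 156954766 to 156954922, 8.08 kb upstream. The fold there was 14.74 and the score 56.93, at percentile 20.0. The peak lay in the 47.1 kb between the start sites of Ier5 and Mr1, which encodes an antigen-presenting molecule for microbial metabolites, and was 39.1 kb from that of Mr1. The other Ier5 peak, at 156780735 to 156780887, was 166 kb downstream (fold 18.42, score 57.75) and 208 kb from the calcium channel gene Cacna1e. At both peaks Ier5 was the nearer gene. The closest peak of the set therefore had 1 of the lowest scores, with only the nearer Klf4 peak, at 509.5 kb, below it.

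Ankrd1 encodes a cardiac ankyrin repeat protein and is widely used as a target gene of YAP and TEAD. Its single peak, at chromosome 19 from 36435308 to 36435463, was 241 kb upstream (fold 18.18) and scored 67.23, at percentile 71.2. The peak was 48.9 kb from Pcgf5, a Polycomb group gene transcribed away from Ankrd1, and 83.1% of the way along the 290 kb between both start sites. No other peak was called within 1 Mb of Ankrd1, and the next peak on the chromosome was 2004 kb away, listed at Fas and Ch25h.

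Over the 7 genes, a neighbour was the nearer gene at 6 of 11 peaks. The immediate-early gene was the nearest listed gene at 5 of the 11 peaks (45.5%, beside 56.1% of all listings), namely both Myc peaks, both Ier5 peaks and the nearer Klf4 peak. The 2 Myc peaks listed no other gene (18.2% of the 11). Only 1 gene was listed at 577 of the 2635 peaks that list a gene, which is 21.1% of all 2741 peaks. At 4 of the 11 peaks, both Myc peaks, the nearer Klf4 peak and the upstream Klf6 peak, even the nearest listed gene was over 500 kb away, as at 10.3% of the 2635 peaks that list a gene. Upstream and downstream were about equally frequent, with 5 of 11 downstream (45.5%, beside 51.9% of all listings). Of the 7 genes, 4 had 2 peaks each (57.1%) and 3 had 1. Of protein-coding genes with a listing, 31.0% had 2 or more peaks.

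In strength, the 11 peaks lay around the middle of the list by fold, and 6 of the 11 lay below its median by score. Their folds ran from 11.12 to 24.62 with a median of 16.75, and the median of all 2741 peaks was also 16.75. Their scores ran from 54.55 to 71.72 with a median of 57.75, beside 61.3 for all peaks. That median of the 11 was just above the lower quartile of all peaks, 57.34, and the scores of the list start at 50.01. None of the 11 reached a score of 100, which 4.63% of all peaks did. All 11 had a fold of at least 10, as did 87.9% of all peaks. Their lengths were 129 to 185 bp with a median of 155 bp, beside 149 bp for all peaks. The resolution of fold is limited, since 4 of the 11 peaks had either 18.42 or 14.74, the 2 commonest values, which 39.8% of all peaks share. A fold of 18.42, seen at Klf2 and at the downstream Ier5 peak, was given to 653 peaks, and a fold of 14.74, seen at Klf6 and Ier5, to 438. Scores repeat too, since the 57.03 of Klf6 and Nr4a2 was given to 46 peaks and the 56.93 of the close Ier5 peak to 56. Equal values at these genes therefore do not set them apart from much of the list.

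**Figure D3:**
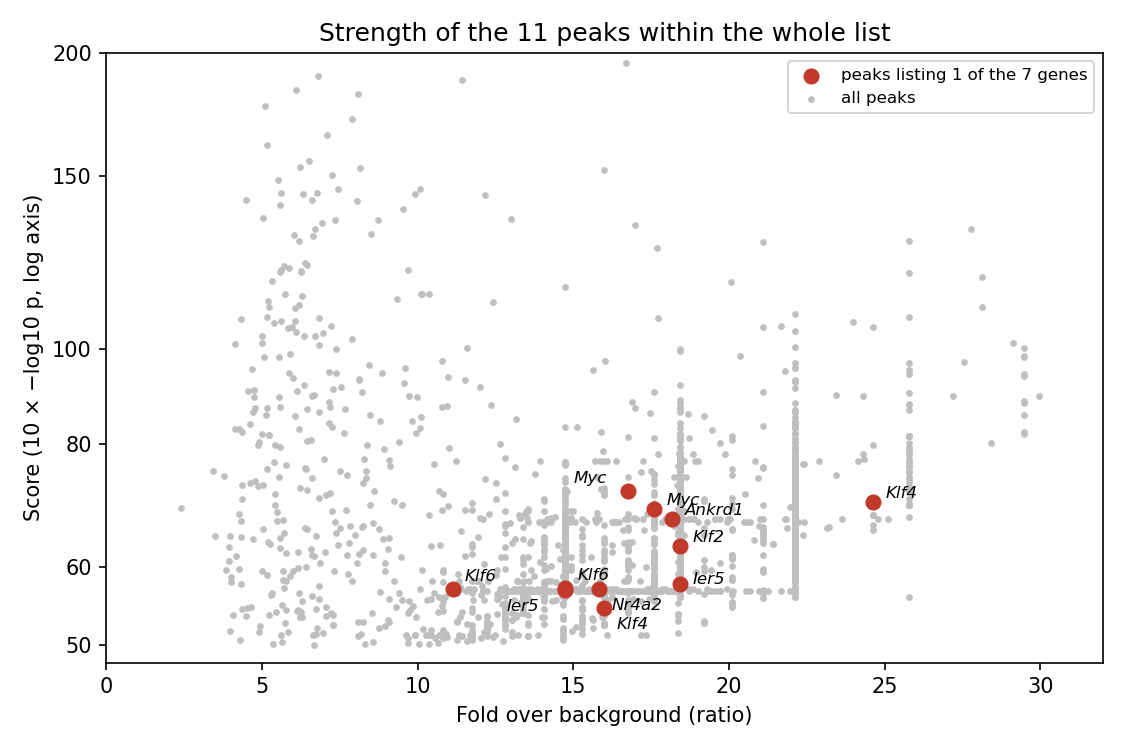
Score (y axis, 10 times −log10 p, log scale) against fold over background (x axis, ratio) for the 11 peaks that list 1 of the 7 genes, in red with the gene's name, and for all peaks in grey. The plot leaves out 29 of the 2741 peaks, with scores above its range or folds right of it. The red points lie between scores of 54.55 and 71.72, and 6 of the 11 are below the median of all peaks, 61.3.

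Of 46 further immediate-early and feedback genes, 2 had a listing (4.35%, with a Clopper-Pearson 95% interval of 0.531 to 14.8), beside 12.5% of all 21900 protein-coding genes of the RefSeq table. These 46 are what is left after the 7 genes, picked for having a peak, are set aside, which lowers their share. With the 7 put back, 9 of 53 had a listing (17.0%), a share that includes the genes picked for having a peak. Neither share tells whether immediate-early genes are listed more or less often than other genes. The listed ones were Dusp4, a phosphatase that inactivates MAP kinases, and Zfp36l2, which encodes an mRNA-destabilising zinc finger protein. Dusp4 had a peak 237 kb upstream (fold 18.42, score 64.02). Zfp36l2 had 2 peaks, the nearer 272 kb upstream (fold 11.33, score 58.12), and the farther had a score of 82.32, above all of the 11 peaks. The other 44, which include Fos, Fosb, Jun, Junb, Egr1, Ier2, Atf3, Nr4a1 and the YAP targets Ctgf and Cyr61, were listed at none of the peaks used here.

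The listed relatives of the 7 genes by family had peaks at 134 to 496 kb. In all, 5 of 27 relatives were listed (18.5%, exact 95% interval 6.30 to 38.1, beside the 12.5% above). The interval counts genes as independent, although Klf5 and Klf12 are listed through the same peak, and the difference was not tested. Of 14 other Klf genes, 4 were listed (28.6%). Klf5, a factor of proliferating gut epithelium, and Klf12 shared 1 peak that lay 355 kb downstream of Klf5 and 496 kb downstream of Klf12 (fold 18.42, score 59.47). Klf13 had a peak at 134 kb with a fold of 16.24, and Klf7 had 1 at 296 kb with a fold of 5.49. Of 9 genes of the Myc, Max and Mxd network, Mycn alone was listed (11.1%), with a peak 279 kb upstream (fold 18.42, score 69.14). Nr4a1 and Nr4a3, which are also among the 46 genes above, and the Ankrd1 relatives Ankrd2 and Ankrd23, were listed at 0 peaks. Of these 5 listed relatives with Dusp4 and Zfp36l2, 0 had a peak within 50 kb, beside 35.6% of all protein-coding genes with a listing.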

How the data were processed

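The authors deposited 1 list of cJUN peaks. Per the submitters' processing notes, the tools were Bowtie 1.1.0 and MACS 1.4 and the genome was mm9. How reads were filtered, how duplicates were treated, which threshold was used and how genes were assigned to peaks are not given in the sources used here. Duplicate handling in particular can change fold and score. Each peak has a fold (immunoprecipitate against background, a ratio) and a score (10 times −log10 of its p-value), both as deposited by the authors. Positions are printed as deposited, with no statement of their first base.

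From this list, every peak whose nearest genes include a member was taken, with Python 3.11.15 and pandas 2.3.3. The members and lists were chosen with earlier results of these data known, and all 7 members and all their peaks are named. Of 2963 listed names, 2870 (96.9%) matched the RefSeq gene table of GRCm38.p6, used for names, strand and gene order only. Strand was taken from RefSeq's promoter table, and for Myc from its 2 peaks, which give 1 start site only on the plus strand. Percentiles count tied peaks at the middle of their tie. Exact intervals are Clopper-Pearson at 95% and cover counting error only. With 1 library per group there was no test. Distance parsing was tested on simulated data.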

Additional observations from a re-analysis of the deposited data

How the results depend on the processing

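No paired analysis was possible because each group has 1 library, and the peak list comes from both together. With peaks at or above the median score of the list, 5 of the 11 peaks were left, 0 genes had a peak within 50 kb, 3 peaks were over 500 kb from their gene, and the median distance was 535 kb. The low score of the close Ier5 peak accounts for the 0. Counting only peaks whose nearest listed gene is the member left 5. The number of genes with a close peak was 2 at a limit of 100 kb, where Klf2 enters. The median distance was 241 kb over each gene's nearest peak and 509.526 kb from the summits. Over each gene's highest-scoring peak, the median fold was 18.18 and the median score 63.0. Of the further immediate-early genes, 0% were listed at a peak within 100 kb. The other alternatives (a fold of at least 10, peaks within 10 kb counted once, close as 10 kb, far as over 300 kb) changed none of the values they were applied to. Leaving out replicates was not possible with 1 library per group. The unknown depth limits what an absent peak can say.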
